A study of Mus musculus with 23 samples.

Results

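10 genes of the thioredoxin system were followed across primary hippocampal neurons with and without Nedd8: *Txn1*, *Txnrd1*, *Txnrd2*, *Srxn1*, *Prdx1*, *Prdx2*, *Prdx3*, *Prdx4*, *Prdx5* and *Prdx6*. All 10 were found by their Ensembl identifiers among the 56941 genes listed in the count files, of which 33025 had a count in any library, and all 10 had enough counts to be tested. The genes were chosen by function from CRE against RFP values of these same libraries, so their differences between CRE and RFP are given as a description, without a test. Where one of the 10 is said to be called, this only records the side of the threshold that it took in the fit over all genes.

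Hippocampi came from newborn mice homozygous for a conditional Nedd8 allele (NEDD8cKO), in which LoxP sites flank exons 2 and 3 of *Nedd8*. The cells of 2 hippocampi shared a dish and were infected on the next day with lentivirus that expressed either RFP alone (RFP) or CRE-recombinase with RFP (CRE), both from the Synapsin1 promoter, which is active in neurons. Both groups therefore carried the floxed allele, the virus and RFP, and only CRE neurons could delete *Nedd8*. RNA was taken after 12 days in culture by the labels (the methods give a later day) and made into 12 CRE and 11 RFP libraries, which the labels name by 2 numbers (Nedd8Cre1-3, for example). The first number was read as the culture, which neither the labels nor the paper state in words. The figure legend counts 3 biological replicates for these libraries, so libraries of one first number may share their animals, and errors over libraries may then be too small. The dishes were not sorted, so RNA of uninfected glia is part of every library.

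Thioredoxin is a small protein that reduces disulfide bonds in other proteins, and thioredoxin reductases recharge it with electrons from NADPH. Peroxiredoxins break down hydrogen peroxide with a reactive cysteine, and most of them are reduced again by thioredoxin. When that cysteine is over-oxidised in the typical 2-cysteine peroxiredoxins, sulfiredoxin restores it. In brain, several of these genes are known targets of NRF2, a transcription factor that binds antioxidant response elements and whose degradation depends on a cullin ubiquitin ligase, and cullins are the main proteins modified by Nedd8.

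The promoters of the 4 genes with the widest CRE to RFP differences are shown because antioxidant response elements are usually sought there. The letters TGACNNNGC, the core of that element, were searched on both strands in the 250 bases before the start of each gene's canonical transcript (GENCODE, GRCm39). The form TGAGNNNGC was added after the *Srxn1* promoter had been seen. Capitals mark every match, bases that overlap an annotated exon of the gene are left out, and each sequence is written along the gene's own strand. The *Srxn1* stretch is chr2:151947194-151947435 (plus strand), that of *Txnrd1* is chr10:82694763-82695012 (plus strand), that of *Prdx6* is chr1:161079099-161079348 (minus strand) and that of *Prdx1* is chr4:116542491-116542684 (plus strand).
Srxn1: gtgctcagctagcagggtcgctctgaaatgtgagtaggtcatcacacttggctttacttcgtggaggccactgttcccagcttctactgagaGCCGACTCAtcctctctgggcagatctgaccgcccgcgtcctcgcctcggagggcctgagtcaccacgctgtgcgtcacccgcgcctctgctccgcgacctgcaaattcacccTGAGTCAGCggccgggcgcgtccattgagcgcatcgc
Txnrd1: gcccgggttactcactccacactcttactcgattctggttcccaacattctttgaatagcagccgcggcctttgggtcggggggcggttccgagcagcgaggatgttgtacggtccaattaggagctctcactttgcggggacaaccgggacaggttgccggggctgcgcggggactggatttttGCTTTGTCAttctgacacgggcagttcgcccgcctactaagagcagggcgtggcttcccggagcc
Prdx6: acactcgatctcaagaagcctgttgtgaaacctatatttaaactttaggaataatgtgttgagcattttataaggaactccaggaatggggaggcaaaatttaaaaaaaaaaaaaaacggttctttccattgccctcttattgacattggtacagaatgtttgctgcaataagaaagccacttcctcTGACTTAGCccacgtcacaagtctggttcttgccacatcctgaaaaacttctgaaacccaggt
Prdx1: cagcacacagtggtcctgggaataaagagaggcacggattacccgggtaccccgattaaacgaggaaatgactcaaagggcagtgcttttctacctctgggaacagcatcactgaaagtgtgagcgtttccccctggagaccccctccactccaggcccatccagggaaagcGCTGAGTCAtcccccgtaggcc

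The core TGACNNNGC stood once before *Txnrd1* (TGACAAAGC on the opposite strand, 65 to 57 bases upstream), once before *Prdx6* (TGACTTAGC on the same strand, 63 to 55 bases upstream) and once before *Prdx1* (TGACTCAGC on the opposite strand, 78 to 70 bases upstream). *Srxn1* had the added form 2 times, as TGAGTCAGC on its own strand 45 to 37 bases upstream and as TGAGTCGGC on the opposite strand 158 to 150 bases upstream. The core was present in 3 of the 10 genes and in 9.7% of 21770 protein-coding promoters. The added form was present in *Srxn1*, *Txn1* and *Prdx5* and in 13.7% of all promoters. Either form was found in 6 of the 10 genes and in 22.1% of all promoters, so the letters are common. They are a description of these windows and not evidence of a bound site.

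The libraries compared were the 21 of the study's own count table, 11 CRE and 10 RFP, with totals from 7430401 to 17112815 counts. The other 2, Nedd8Cre3-3 with 1546796 counts and Nedd8RFP3-2 with 7635735, entered only where all 23 libraries are named. The methods of the paper describe another set. There, Nedd8Cre1-3 and Nedd8Cre3-3 were dropped before differential analysis, after a look at PCA and gene counts. Nedd8Cre1-3 and Nedd8RFP2-4 stood apart within the 21. Mitochondrial genes took 0.261% and 3.44% of their counts, against 7.0% to 11.1% in the other 19, and their gene levels followed GC content (Spearman's rho across 14346 genes 0.73 and 0.47, against values from -0.21 to 0.20 in the other 19). Calls of the 10 genes, of the markers and of the related lists that change without them are given both ways, and other values only where stated. Means, SDs, levels per kb and shares of the CRE group thus include Nedd8Cre1-3. *Nedd8* itself checked the labels. It had a lowest level of 5.92, a median of 12.1 and a highest level of 17.96 CPM (a gene's count divided by the library's total after TMM scaling, in units of 1e-06) in CRE libraries, against 44.1, 62.4 and 76.0 CPM in RFP libraries, a log2 fold change of -2.44 (SE 0.17), and the groups did not overlap.

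Neuron markers were abundant, with a summed level of 2478 to 4990 CPM in CRE and 5207 to 6395 CPM in RFP libraries, and 5 of 8 were called lower. Astrocyte markers summed to 1559 to 5126 CPM in CRE and 3612 to 7845 CPM in RFP libraries (4 of 8 lower, 1 higher), and oligodendrocyte lineage markers to 425 to 1910 and 647 to 1867 CPM (5 of 8 lower, none higher). The 1910 CPM was that of Nedd8Cre1-3, with 1685 CPM of *Olig1*, which was not called over the 21 libraries. Among the 5 lower, *Pdgfra* went from a mean of 254 CPM in RFP to 42.3 CPM in CRE libraries (log2 fold change -2.60). *Sox10* went from 77.4 to 8.94 CPM (-3.13) and *Cspg4* from 70.3 to 15.3 CPM (-2.22). Microglia markers were near 0, with sums of at most 7.70 CPM, *Cx3cr1*, *Itgam* and *C1qa* at a median of 0 in both groups, and *Tmem119* called as higher. Endothelial and mesenchymal markers summed to 15.0 to 241 and 17.5 to 114 CPM (1 of 6 tested higher, 1 lower), and *Pecam1*, *Cldn5* and *Cdh5* had too few counts to be tested. Over the 19 libraries without Nedd8Cre1-3 and Nedd8RFP2-4, *Snap25* (log2 fold change -0.27) and *Olig1* (-0.41) were called as lower too. Of all genes tested over the 21 libraries, 16.4% were higher and 13.8% lower. In bulk samples, fewer cells of a type and less RNA per cell cannot be told apart. The part of these shifts in the results below was not tested.

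In the edgeR fit over all genes 6 of the 10 were called (adjusted p under 0.05), all of them as higher in CRE libraries, which is a description since this contrast chose them. Across the 14488 genes tested, 30.2% were called, 16.4% as higher and 13.8% as lower. No gene of the 10 was called lower. The genes higher in CRE were *Srxn1*, *Txnrd1*, *Prdx6*, *Prdx1*, *Prdx4* and *Txn1*. The first 3 also passed a stricter pair of thresholds (more than 1.3 on the log2 scale, with -log10 of the adjusted p over 6), as 1.09% of all genes did in that direction. With the unadjusted p in its place *Prdx1* passed too, 4 of the 10 against 1.95% of all genes. *Srxn1*, *Txnrd1* and *Prdx6* were the only ones of the 10 with every CRE library above every RFP library, which held for 2.64% of all genes. The median log2 fold change was 0.83 over the 10 genes and 0.02 over all genes. Since these values chose the genes, nothing is read from the shares.

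**Figure D1:**
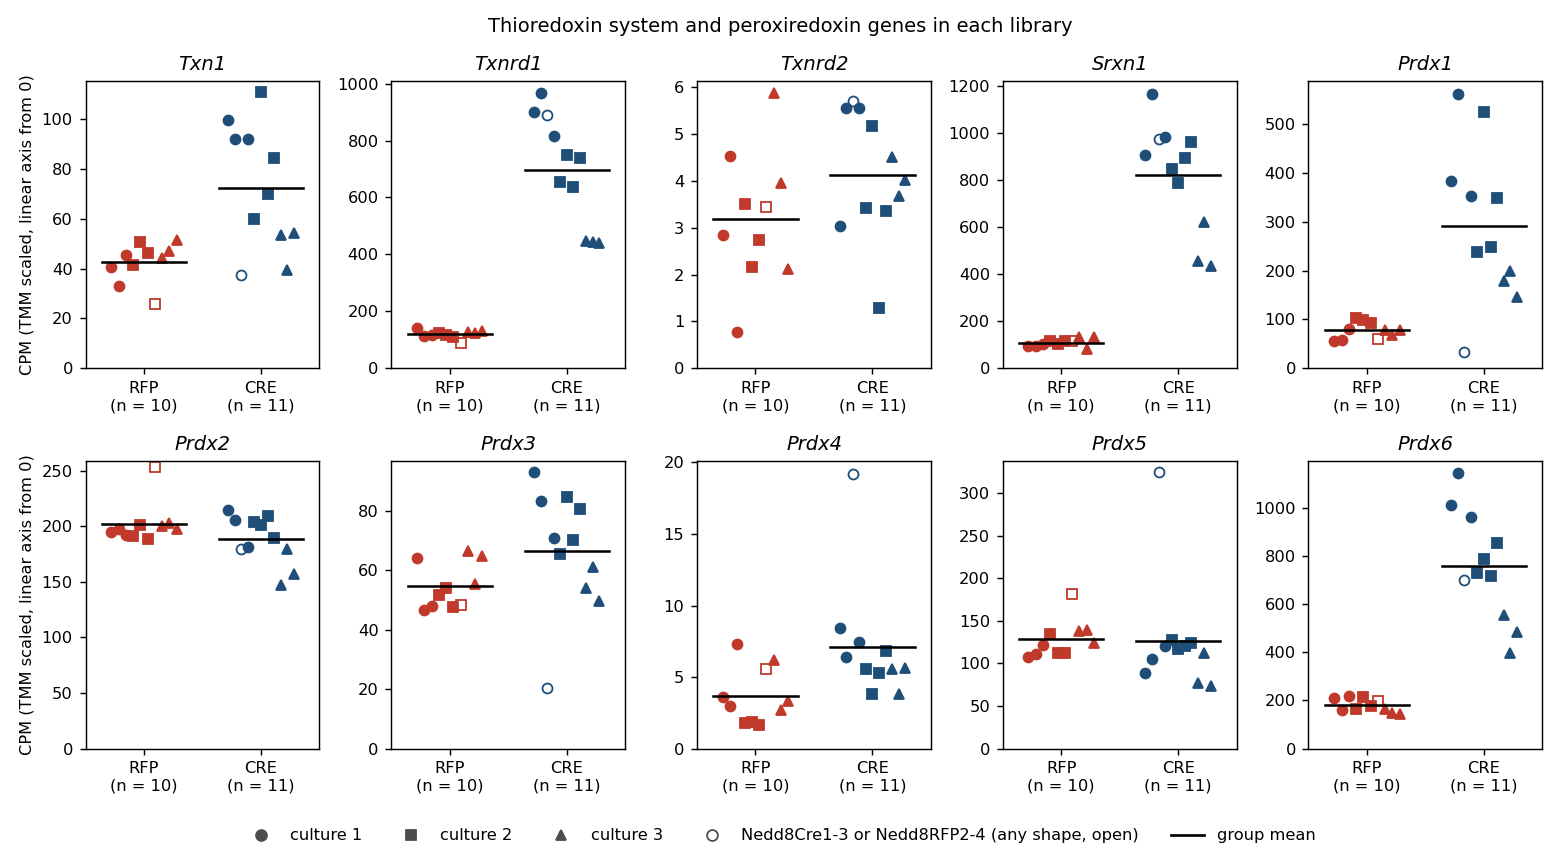
Level of each gene in CPM (vertical axis, linear from 0) in the 10 RFP and 11 CRE libraries, with one point per library, shapes for the culture number, open points for Nedd8Cre1-3 and Nedd8RFP2-4 and a line at the group mean. *Srxn1*, *Txnrd1* and *Prdx6* show no overlap between the groups, and the open CRE point lies apart for *Prdx1*, *Prdx3*, *Prdx4* and *Prdx5*.

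Sulfiredoxin, the repair enzyme of over-oxidised peroxiredoxins, had the widest difference. *Srxn1* (ENSMUSG00000032802, chr2:151947436-151957687, GRCm39) had a lowest level of 437, a median of 896 and a highest level of 1168 CPM in CRE libraries, against 81.7, 110 and 134 CPM in RFP libraries. Its lowest CRE library was thus well above its highest RFP library. This is a log2 fold change of 2.89 with a standard error (SE) of 0.16, or 7.41-fold. It lay between 2.64 and 3.10 under all 34 alternatives, and neither of the libraries that stood apart was the lowest or the highest of its group.

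Cytosolic thioredoxin reductase, a selenoprotein, came next. *Txnrd1* (ENSMUSG00000020250, chr10:82669785-82733546) had a lowest level of 441, a median of 740 and a highest level of 965 CPM in CRE libraries, and of 89.6, 121 and 140 CPM in RFP libraries. The log2 fold change was 2.53 (SE 0.15), or 5.78-fold, and ranged from 2.31 to 2.74 over the alternatives. The mitochondrial reductase is encoded by a separate gene, which was among the lowest of the 10. *Txnrd2* (ENSMUSG00000075704, chr16:18245134-18297823) lay between 1.28 and 5.72 CPM (median 4.02) in CRE and between 0.781 and 5.88 CPM (median 3.15) in RFP libraries, with full overlap and a log2 fold change of 0.35 (SE 0.30). At this level it was counted from few reads, 913 over the 23 libraries.

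Thioredoxin itself, the substrate of the reductase, differed by less than its reductase. *Txn1* (ENSMUSG00000028367, chr4:57934208-57956424) had a lowest level of 37.5, a median of 70.1 and a highest level of 111 CPM in CRE libraries, and of 25.7, 44.9 and 51.4 CPM in RFP libraries, a log2 fold change of 0.74 (SE 0.18). In all, 9 of 11 CRE libraries lay above all RFP libraries. The other 2 were Nedd8Cre1-3 at 37.5 CPM and Nedd8Cre3-2 at 39.7 CPM. *Txn1* was no longer called when culture 2 was left out, where its log2 fold change was 0.61.

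*Prdx6*, the peroxiredoxin with a single reactive cysteine, which also has phospholipase activity and is reduced by glutathione rather than thioredoxin, was the only peroxiredoxin without overlap between the groups. *Prdx6* (ENSMUSG00000026701, chr1:161051417-161079098) had a lowest level of 397, a median of 732 and a highest level of 1146 CPM in CRE libraries, against 144, 172 and 218 CPM in RFP libraries. Its difference of 2.06 on the log2 scale (SE 0.16), or 4.16-fold, ranged from 1.89 to 2.13 over the alternatives.

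Of the cytosolic 2-cysteine peroxiredoxins, *Prdx1* was higher in CRE libraries and *Prdx2* was not. *Prdx1* (ENSMUSG00000028691, chr4:116532123-116558398) had a lowest level of 33.5, a median of 247 and a highest level of 562 CPM in CRE libraries, and of 56.8, 78.9 and 103 CPM in RFP libraries. In 10 of 11 CRE libraries it lay above every RFP library, and in Nedd8Cre1-3 it lay below every RFP library. The log2 fold change was 1.89 (SE 0.29) with that library and 2.02 (SE 0.22) without it. Of the 50-base stretches of its canonical transcript, 28.2% occur elsewhere in the genome, the highest share of the 10 genes, so its counts depend on how reads with several places were handled, which is not given in the sources used here.

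*Prdx2*, the peroxiredoxin known for its abundance in neurons, had the smallest SE of the log2 fold change among the 10 genes. *Prdx2* (ENSMUSG00000005161, chr8:85693354-85702350) lay between 147 and 214 CPM (median 190) in CRE and between 188 and 253 CPM (median 197) in RFP libraries. With a log2 fold change of -0.12 (SE 0.09), it was called under none of the 34 alternatives, and 5 of 11 CRE libraries lay below all RFP libraries. Its exons overlap those of *Rnaseh2a* (765 bases) and *Junb* (173 bases) on the opposite strand.

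The peroxiredoxins of other compartments depended on Nedd8Cre1-3. *Prdx3*, the mitochondrial form (ENSMUSG00000024997, chr19:60852489-60863017), lay between 20.3 and 93.1 CPM (median 70.2) in CRE and between 46.6 and 66.5 CPM (median 53.01) in RFP libraries, with a log2 fold change of 0.27 (SE 0.17) that was not called. The value of 20.3 CPM is that of Nedd8Cre1-3. Without that library the log2 fold change was 0.36 (SE 0.11) and *Prdx3* was called as higher.

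*Prdx4*, the form of the endoplasmic reticulum (ENSMUSG00000025289, chrX:154106813-154123750), was the lowest of the peroxiredoxins, at 3.79 to 19.2 CPM (median 5.61) in CRE and 1.67 to 7.31 CPM (median 3.14) in RFP libraries. The highest value was again that of Nedd8Cre1-3, and the next CRE library had 8.42 CPM. The log2 fold change of 0.91 (SE 0.32) became 0.65 (SE 0.28) without that library and was then not called, whereas it was 0.73 and called both over the 19 libraries and over those left by the methods, which lack it too. *Prdx4* lost its call in 10 of the 34 alternatives, and 373 bases of its exons are shared with *Acot9* on the opposite strand.

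*Prdx5*, which is found in mitochondria, peroxisomes and cytosol (ENSMUSG00000024953, chr19:6884065-6887792), lay between 73.7 and 325 CPM (median 117) in CRE and between 107 and 181 CPM (median 123) in RFP libraries. Nedd8Cre1-3 had 325 CPM, while the other 10 CRE libraries ran up to 127 CPM. The log2 fold change was -0.04 (SE 0.19) with that library and -0.29 (SE 0.11) without it, and it was then called as lower. Over the 19 libraries, which also lack it, the value was -0.22 and not called. It did not keep a sign over the alternatives. In Nedd8Cre1-3, which had the strongest relation to GC content, *Prdx1* and *Prdx3* were the lowest and *Prdx4* and *Prdx5* the highest of all CRE libraries compared. GC content over all annotated exons, the measure used for that relation, was 44.75%, 46.58%, 41.09% and 57.27% for these genes in turn. In their canonical transcripts it was 42.4%, 45.7%, 48.9% and 59.1%, so the place of *Prdx4* depends on the measure. The part of GC content in these levels was not tested. With each library's GC trend removed the log2 fold changes were 1.87 for *Prdx1*, 0.26 for *Prdx3*, 1.52 for *Prdx4* and -0.14 for *Prdx5*.

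**Figure D2:**
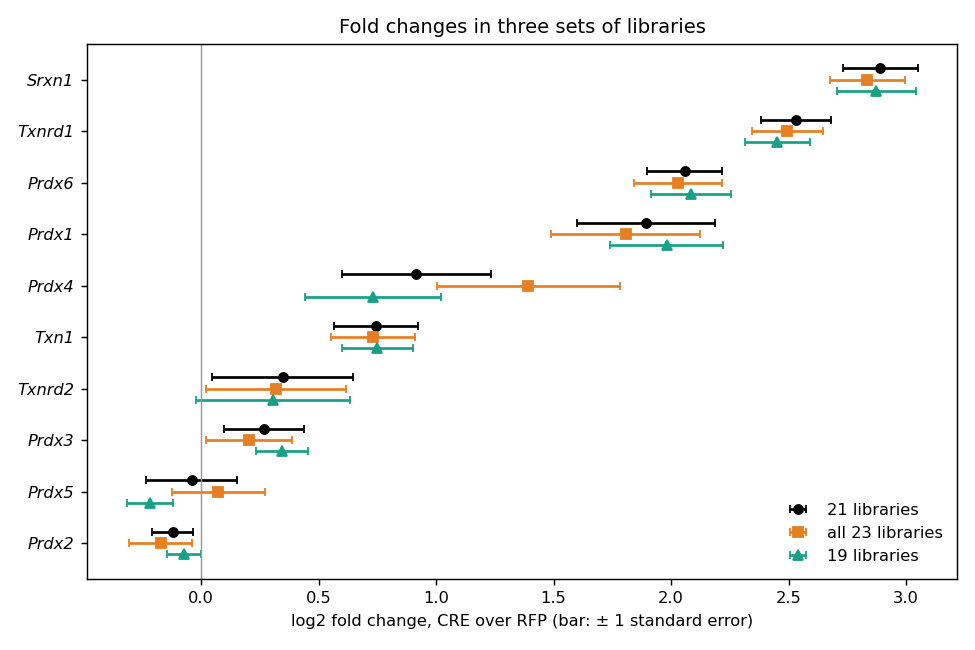
Log2 fold change of CRE over RFP (horizontal axis, bars of 1 SE) for the 10 genes in the 21 libraries compared, in all 23 and in the 19 left without Nedd8Cre1-3, Nedd8Cre3-3, Nedd8RFP2-4 and Nedd8RFP3-2. *Srxn1*, *Txnrd1*, *Prdx6* and *Prdx1* keep their order in all 3 sets, whereas *Prdx4* moves from 0.73 to 1.39 and *Prdx5* lies on either side of 0.

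The order of the genes by level differed between the groups. Levels were set per kb of the canonical transcript, since a longer transcript yields more fragments. In RFP libraries *Prdx2* came first with 94.2 ± 8.69 CPM per kb (SD, n = 10), followed by *Prdx5* (81.1 ± 14.0), *Prdx6* (66.7 ± 10.5) and *Txn1* (53.9 ± 10.1). *Prdx3* (36.8 ± 5.23), *Txnrd1* (35.8 ± 4.17) and *Prdx1* (29.0 ± 6.19) followed at similar levels, then *Srxn1* (15.2 ± 2.29), *Prdx4* (3.32 ± 1.80) and *Txnrd2* (1.65 ± 0.73). Neighbours from *Prdx2* to *Txn1* and from *Prdx3* to *Prdx1* lay within the sum of their SDs. The gaps between *Txn1* and *Prdx3*, *Prdx1* and *Srxn1*, and *Srxn1* and *Prdx4* were wider than that, and *Prdx4* and *Txnrd2* did not differ beyond it. All genes were measured in the same libraries, and a sum of SDs does not use that pairing. *Prdx2* lay above *Prdx5* in every RFP library, whereas *Prdx5* and *Prdx6* changed places between libraries.

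In CRE libraries *Prdx6* came first with 282 ± 84.6 CPM per kb (SD, n = 11), followed by *Txnrd1* (210 ± 57.8), *Srxn1* (114 ± 31.8) and *Prdx1* (109 ± 59.9). *Txn1* (91.4 ± 31.8), *Prdx2* (87.8 ± 10.0), *Prdx5* (80.0 ± 43.3) and *Prdx3* (44.8 ± 13.7) came next, and *Prdx4* (6.38 ± 3.84) and *Txnrd2* (2.13 ± 0.70) stayed last. Apart from the steps between *Txnrd1* and *Srxn1* and between *Prdx3* and *Prdx4*, neighbours lay within the sum of their SDs. That sum again leaves the pairing of genes within libraries unused. The order depends on the length used. Per kb of all annotated exons, *Prdx5* came first in RFP and *Txnrd1* in CRE libraries.

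Within the peroxiredoxins, the makeup of the pool differed as well. The summed level of the 6 genes was 311 ± 23.4 CPM per kb in RFP (SD, n = 10) and 610 ± 149 CPM per kb in CRE libraries (SD, n = 11). *Prdx6* made up 21.5% ± 3.08 of that sum in RFP and 45.7% ± 4.59 in CRE libraries. *Prdx2* made up 30.3% ± 1.58 and 14.9% ± 2.78, and *Prdx5* 26.0% ± 2.91 and 13.6% ± 7.47. The share of *Prdx2* lay below that of every RFP library in all CRE libraries, while its own level overlapped between the groups. *Prdx1* made up 9.37% ± 2.09 and 17.2% ± 6.43, *Prdx3* 11.9% ± 1.83 and 7.47% ± 1.92, and *Prdx4* about the same share in both groups (1.05% and 1.08%). These values depend on the length used. Per kb of all annotated exons the sum was 168 ± 12.4 in RFP and 286 ± 68.1 CPM per kb in CRE libraries, and *Prdx6* made up 11.6% ± 1.89 and 28.3% ± 3.54 of it, *Prdx2* 26.5% ± 1.49 and 15.0% ± 2.57, and *Prdx3* 20.0% ± 2.82 and 14.4% ± 3.55.

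**Figure D3:**
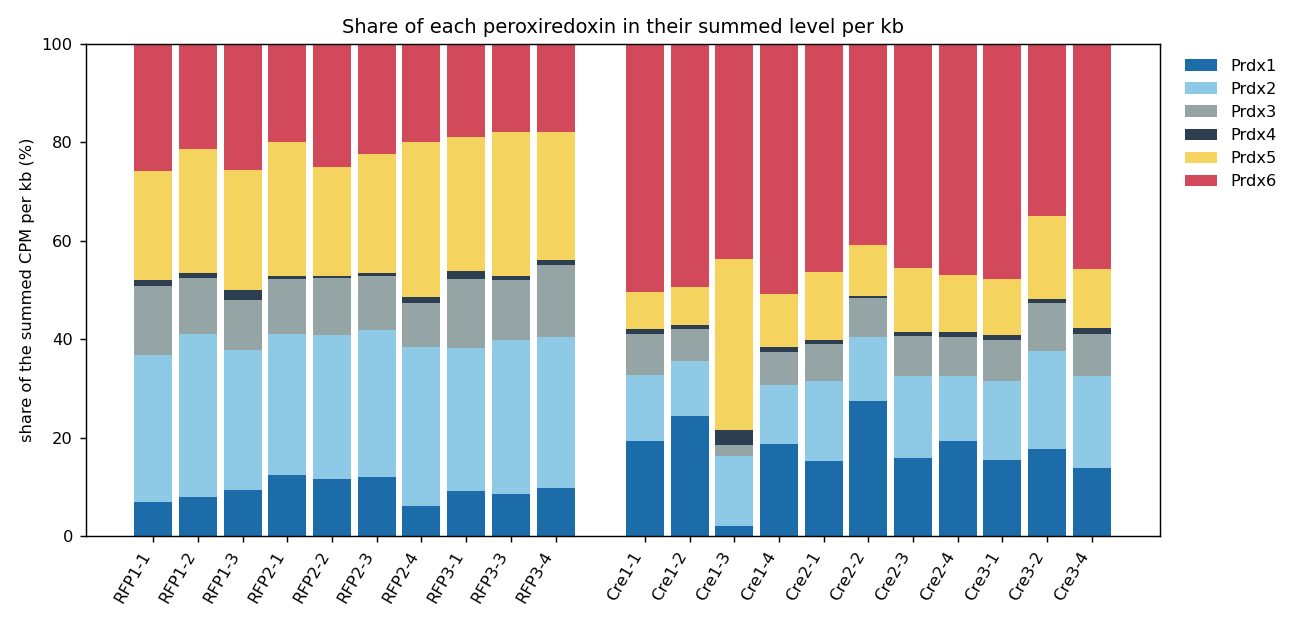
Share of each peroxiredoxin (vertical axis, percent from 0 to 100) in their summed CPM per kb of canonical transcript, with one bar per library and the 10 RFP libraries to the left of the 11 CRE libraries. *Prdx6* takes 17.8% to 25.7% in RFP and 34.98% to 50.8% in CRE libraries, and Nedd8Cre1-3 has the smallest share of *Prdx1* (2.11%) and the largest of *Prdx5* (34.7%).

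Whether the effect of CRE differed between the 3 cultures is a question that the choice of genes did not use, and it was tested over all genes as the interaction of condition and culture. Of the 14488 genes, 0.0069% (1 gene, *Mbp*, none of the 10) were called over the 21 libraries, with 595 genes at an unadjusted p under 0.05. Those 595 are a smaller share than the 0.05 of genes expected at that threshold with no interaction at all. *Txnrd1* had 902, 965, 891 and 815 CPM in the CRE libraries of culture 1, 653, 747, 636 and 740 CPM in culture 2, and 445, 443 and 441 CPM in culture 3. The RFP libraries had 113 to 140, 89.6 to 125 and 125 to 129 CPM. The CRE levels of the 3 cultures did not overlap, while the RFP levels lay close together, and the difference of mean log2 CPM between CRE and RFP was 2.86, 2.67 and 1.79 in cultures 1, 2 and 3.

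*Srxn1* had the same order of cultures. It had 907, 1168, 973 and 982 CPM in the CRE libraries of culture 1, 848, 787, 896 and 964 CPM in culture 2, and 457, 623 and 437 CPM in culture 3, with RFP libraries between 81.7 and 134 CPM. The difference was 3.34, 2.96 and 2.14 on the log2 scale, or 10.1-fold, 7.76-fold and 4.40-fold. Over the 21 libraries the interaction had an adjusted p of 0.545 for *Txnrd1* and 0.652 for *Srxn1* (edgeR's quasi-likelihood test, Benjamini-Hochberg adjustment), which does not pass. Over the 19 libraries without those that stood apart, 36 of 14666 genes were called, and the adjusted p was 0.00744 for *Txnrd1* and 0.0294 for *Srxn1*. Over all 23 libraries no gene was called, and the adjusted p was 0.261 and 0.650. Libraries of the same number are the replicates of this test, so its p measures only the spread between them.

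Other genes also had their smallest difference in culture 3. *Prdx6* differed by 2.27, 2.04 and 1.65 on the log2 scale in cultures 1, 2 and 3, and *Prdx1* by 1.80, 1.89 and 1.20. Without Nedd8Cre1-3 the difference of *Prdx1* in culture 1 was 2.72, or 6.57-fold instead of 3.49-fold. *Txn1* differed by 0.93 (1.26 without that library), 0.99 and 0.04, and in culture 3 its CRE libraries (53.4, 39.7 and 54.4 CPM) overlapped the RFP libraries (44.3 to 51.4 CPM). None of these 3 genes was called for the interaction in any of the 3 sets of libraries, with adjusted p from 0.105 (*Txn1*, 19 libraries) to 0.977 in edgeR. Residual *Nedd8* in CRE libraries was 5.92 to 13.0 CPM in culture 1, 6.95 to 12.2 CPM in culture 2 and 12.7 to 17.96 CPM in culture 3, and its own interaction had an adjusted p of 0.977. The part of residual *Nedd8* in the smaller differences of culture 3 was not tested.

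**Figure D4:**
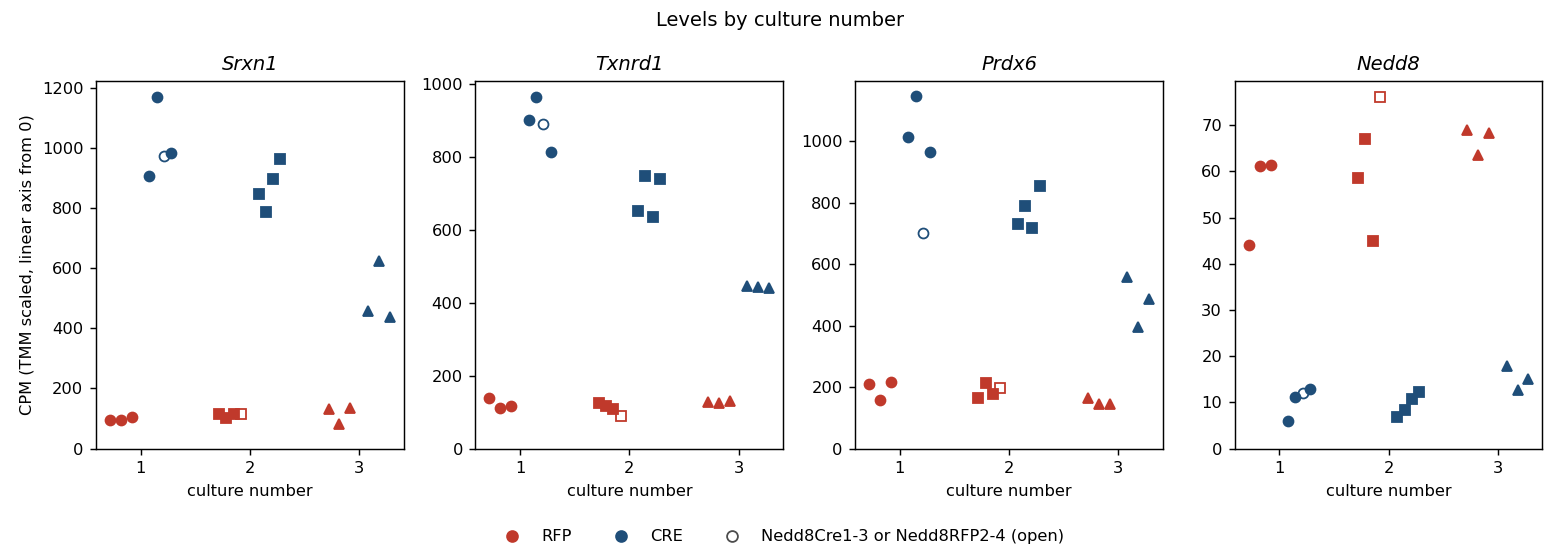
Level in CPM (vertical axis, linear from 0) of *Srxn1*, *Txnrd1*, *Prdx6* and *Nedd8* by culture number, with one point per library and open points for Nedd8Cre1-3 and Nedd8RFP2-4. CRE levels of *Srxn1* and *Txnrd1* are lowest in culture 3 (437 to 623 and 441 to 445 CPM), where residual *Nedd8* is 12.7 to 17.96 CPM.

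The genes whose log2 CPM was most like that of *Srxn1* over the 21 libraries were *Ddit4l* (Pearson's r = 0.988), *Txnrd1* (0.986), *Nes* (0.984), *Jph2* (0.977) and *Gclm* (0.977), out of 14381 genes. *Gclm* encodes the modifier subunit of the enzyme that makes the glutathione precursor, *Nes* the intermediate filament nestin and *Jph2* a junctional membrane protein. *Prdx6* came 11th with 0.968, *Prdx1* 901st with 0.740 and *Prdx2* 9282nd with -0.20. All points share their libraries, and the step between CRE and RFP makes up much of each value. Within the 10 RFP libraries alone, r with *Srxn1* was -0.09 for *Txnrd1*, 0.37 for *Prdx1* and 0.08 for *Prdx2*. Within the 11 CRE libraries it was 0.91 for *Txnrd1*, 0.81 for *Prdx6*, 0.26 for *Prdx1* and 0.80 for *Prdx2*. These values include the differences between cultures. The CRE libraries of culture 3 had 437 to 623 CPM of *Srxn1* and 441 to 445 CPM of *Txnrd1*, below all other CRE libraries compared. Within single cultures r was not computed, so these values are not read as libraries varying together. The values of *Prdx1* over the 21 and the 11 libraries include Nedd8Cre1-3, with 33.5 CPM of *Prdx1* beside 973 CPM of *Srxn1*. Its r and rank without that library were not computed, so its order against *Prdx2* is not read further.

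Other genes of the pathway were taken from 7 lists of 72 genes, of which 63 had enough counts. The CRE group had 17 of them called as higher and 10 as lower, with a median log2 fold change of 0.16. Over all genes tested, 16.4% were higher and 13.8% lower, so the share of lower genes in the lists (10 of 63) was near that of all genes. Over the 19 libraries without those that stood apart, 30 were called. These held 26 of the 27 with the same sign, all but *Sod3* (adjusted p = 0.0844 in edgeR), and 4 more, *Sepsecs* and *Selenok* as higher and *Selenoh* and *Selenot* as lower. All adjusted p given here for these lists are from edgeR's quasi-likelihood test over the 21 libraries with Benjamini-Hochberg adjustment over all genes.

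The list of other peroxide and superoxide enzymes had the largest share of higher genes, 7 of 9 tested and none lower, against 16.4% and 13.8% of all genes. Catalase, which breaks down hydrogen peroxide in peroxisomes, rose from 64.0 ± 12.5 CPM in RFP (SD, n = 10) to 128 ± 28.5 CPM in CRE libraries (SD, n = 11; *Cat*, log2 fold change 0.99, adjusted p = 4.46e-06). The cytosolic glutathione peroxidase *Gpx1* rose from 8.50 ± 2.92 to 26.2 ± 11.3 CPM (1.61, adjusted p = 1.05e-05), without overlap between the groups. The peroxidases of the endoplasmic reticulum *Gpx8* (1.5, adjusted p = 6.26e-05) and *Gpx7* (1.68, adjusted p = 0.000626) rose too, the latter from 1.52 to 4.95 CPM. *Sod1*, *Sod3* and *Gpx3* made up the rest. *Gpx4* (0.18) and the mitochondrial *Sod2* (-0.17) did not pass.

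Among relatives of thioredoxin, 5 of 18 tested were higher and 1 lower, against 16.4% and 13.8% of all genes. Nucleoredoxin, a cytosolic oxidoreductase, rose from 14.0 ± 3.34 to 30.5 ± 16.7 CPM (*Nxn*, log2 fold change 1.10, adjusted p = 0.000329), and all CRE libraries lay above all RFP libraries. Nedd8Cre1-3 had the highest level, 79.1 CPM, and over the 19 libraries the log2 fold change was 0.83. The thioredoxin-domain proteins of the secretory pathway *Txndc5* (0.51, adjusted p = 0.00154), *Txndc12* (0.58, adjusted p = 0.0105) and *Txndc11* (0.49, adjusted p = 0.0209) rose by less. The remaining calls were the thioredoxin inhibitor *Txnip* (0.90) and, as the lower gene, *Txnl4b* (-0.57). Mitochondrial thioredoxin, *Txn2*, the partner of *Txnrd2*, had 74.7 ± 14.9 CPM in RFP and 90.2 ± 31.2 CPM in CRE libraries (0.25, adjusted p = 0.244). Of the 4 glutaredoxins, which use glutathione in place of thioredoxin reductase, only *Glrx2* was called, as lower (-0.40, adjusted p = 0.0331).

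The 8 genes listed because their products work with thioredoxin split in both directions, 2 higher and 3 lower. Of all genes, 16.4% were higher and 13.8% lower. The methionine sulfoxide reductase *Msrb1*, a selenoprotein, rose (0.98, adjusted p = 0.000113), as did *Msrb2*, whereas *Msra*, which acts on the other stereoisomer of methionine sulfoxide, fell (-0.79, adjusted p = 0.000299). Both subunits of ribonucleotide reductase that serve dividing cells fell, *Rrm2* from 33.8 ± 8.13 to 18.5 ± 6.29 CPM (-0.89, adjusted p = 0.000547) and *Rrm1* from 32.01 ± 6.34 to 20.8 ± 6.70 CPM (-0.64, adjusted p = 0.00727). Oligodendrocyte lineage markers were lower in the same libraries, and their part in these values was not tested. The sestrins, stress-responsive regulators of mTORC1, had 2 of 3 genes higher, *Sesn3* (0.95, adjusted p = 7.82e-06) and *Sesn2* (1.08, adjusted p = 5.97e-05).

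Of 8 genes that serve the synthesis of selenoproteins, 3 were lower, none was higher and 5 did not pass, against 13.8% lower and 16.4% higher of all genes. *Sephs1* fell from 60.2 ± 5.69 to 38.9 ± 6.16 CPM (-0.65, adjusted p = 3.12e-05) with every CRE library below every RFP library, and *Eefsec*, the elongation factor for selenocysteine (-0.73, adjusted p = 0.0162), and *Secisbp2l* (-0.33, adjusted p = 0.0251) fell as well. Over the 19 libraries *Sepsecs*, which makes selenocysteine on its tRNA, was called as higher (0.53, adjusted p = 0.00533 in edgeR). Of 13 other selenoproteins tested, *Dio2*, which activates thyroid hormone and is typical of astrocytes, rose (1.4, adjusted p = 0.000138), while *Selenow* (-0.71, adjusted p = 1.63e-05) and *Selenom* (-0.72, adjusted p = 0.00785) fell. The other 10 did not pass over the 21 libraries, and the 2 of 13 lower were near the 13.8% of all genes.

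**Figure D5:**
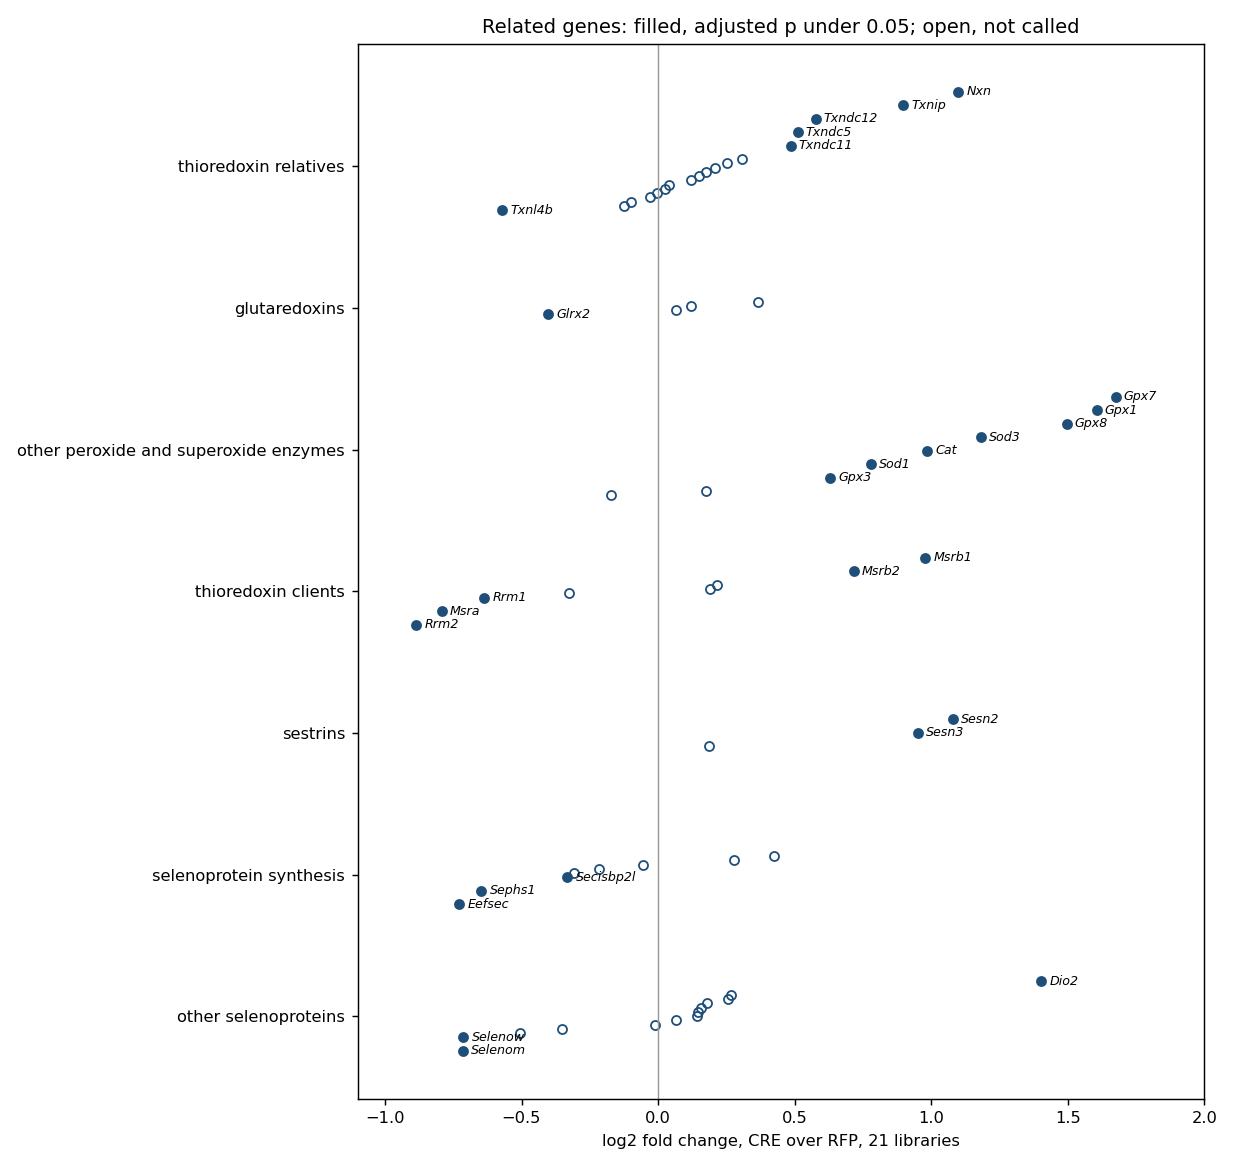
Log2 fold change of CRE over RFP (horizontal axis, 21 libraries) for the 63 tested genes of the 7 related lists, with filled, named points for an adjusted p under 0.05 and open points for the rest. Of the peroxide and superoxide enzymes 7 of 9 lie filled to the right of 0, and none of the 8 genes of selenoprotein synthesis does.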

How the data were processed

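RNA of 23 libraries was prepared with a stranded mRNA kit. Per the labels, bcl2fastq 2.20.0.422, STAR 2.7.8a and featureCounts 1.5.0-p1 were used with GRCm39. The authors deposited unnormalized gene counts for each library, as whole numbers. The strand setting of the counting is not given in the sources used here, so reads of genes that overlap on opposite strands may not be told apart. Total counts per library set the precision, and p-values measure only the spread between these libraries, which may share 3 biological replicates.

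Counts of 21 libraries were fitted in edgeR 4.0.16 (R 4.3.3) with filterByExpr, TMM factors, a robust glmQLFit and glmQLFTest on condition alone, with Benjamini-Hochberg adjustment over 14488 genes. A gene was called at an adjusted p under 0.05. The interaction of condition and culture was fitted the same way. DESeq2 1.42.0 was an alternative. Between any pair of libraries of a group the chi-square per degree of freedom was at least 10.4, so no library was taken for a copy of another. The procedure was tested on simulated data. CPM values are linear, and log2 CPM used a prior count of 2. Methods removes Nedd8Cre1-3 and Nedd8Cre3-3, whereas the count table leaves out Nedd8Cre3-3 and Nedd8RFP3-2.

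The members and lists were chosen with earlier results of these data known. Named were the 10 genes, *Nedd8*, up to 4 called genes of smallest p in each of 7 related lists and the 5 genes most like *Srxn1*. *Txn2*, *Txnip*, *Txnl4b*, *Gpx3*, *Gpx4*, *Sod1*, *Sod2*, *Sod3*, *Msrb2*, *Sepsecs*, *Selenoh*, *Selenok*, *Selenot*, *Mbp*, *Snap25*, *Olig1*, *Pdgfra*, *Sox10* and *Cspg4* were named after their values were seen. Same-numbered CRE and RFP libraries did not deviate together throughout (correlation 0.02, 0.02 and 0.14 for cultures, -0.23 to 0.09 for library numbers), so the main comparison had no block. Promoter sequences were read from GRCm39 at GENCODE M39 canonical starts. Alternatives covered the libraries, tool, scaling, filter, block, sums per culture, GC content and each culture or library left out. Values within cultures, the second motif, the unadjusted threshold and shares per kb of all exons were added after seeing the data.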

Additional observations from a re-analysis of the deposited data

Results flagged for a closer look

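*Prdx2* had 253 CPM in Nedd8RFP2-4, and the next RFP library had 203 CPM. *Prdx5* had 181 CPM in the same library, and the next RFP library had 139 CPM. Each was far from the other 9 RFP libraries by Dixon's test at its 95% level, and chance gives such a gap in about 1 in 20 groups. *Nedd8* and the 10 genes were examined in this way, 11 groups in all, and the CRE libraries, 11 in number, were not tested. Nedd8RFP2-4 had 3.44% mitochondrial counts and a Spearman's rho with GC content of 0.47, and the part of either in these levels was not tested. Without it the log2 fold change was -0.06 for *Prdx2* and 0.04 for *Prdx5*, and neither was called.

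The effect of CRE on *Txnrd1* and *Srxn1* differed between cultures over the 19 libraries without those that stood apart, with an adjusted p of 0.00744 and 0.0294 (edgeR's quasi-likelihood test of the interaction). Over the 21 libraries the adjusted p was 0.545 and 0.652. The test takes libraries of the same number as replicates, so its p measures only their spread. That CRE and RFP libraries of the same number share a culture is a reading of the labels. The difference was smallest in culture 3 for both genes.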

How the results depend on the processing

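*Srxn1*, *Txnrd1*, *Prdx6*, *Prdx1* and *Nedd8* kept their direction and their call under all 34 alternatives, which leave out libraries or cultures, change the tool, scaling, filter or block, sum counts per culture or remove the GC trend. *Txn1* lost its call in 1 of them, *Prdx4* in 10, and *Prdx3* gained one in 3. *Prdx5* turned from -0.04 to 0.0736 over all 23 libraries, 0.05 without culture 2, 0.13 without culture 3, 0.002 without Nedd8Cre3-4 and 0.04 without Nedd8RFP2-4, and the cause was not tested. With a culture left out it ranged from -0.34 (culture 1) to 0.13 (culture 3). Members called ranged from 4 (without culture 2, where *Txn1* and *Prdx4* were lost) to 8 (the libraries left by Methods, where *Prdx3* as higher and *Prdx5* as lower were added). With counts summed per culture, 3 against 3, 5 members were called, without *Prdx4* (0.76). Leaving out each culture or library in turn, 2114 to 5507 genes, 4 to 7 members and 16 to 29 related genes were called. The 2114 and the 16 are without culture 2, which leaves fewer libraries, and the 5507 and the 29 without Nedd8Cre1-3. Without a filter on low counts 6920 genes were called instead of 4370, and more genes were tested. The interaction of condition and culture called 1 gene over 21 libraries, 36 over 19 and 0 over all 23. With culture as a replicate block 4267 genes and 6 members were called, and with the library number as a replicate block 4235 genes and 6 members, so neither block changed a count by more than 1.5 times. Among cultures, only 3 correlated best with its own number. The core motif with a further A stood in 2.2% of promoters and in *Txnrd1* alone of the 10 genes. Depth limits *Txnrd2* and *Prdx4* most, whose totals over 23 libraries were 913 and 1350 counts.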
